A study of Mus musculus with 30 samples.

Results

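Thyroid glands of wild-type C57BL/6 male mice were compared at 8 months and at 2 months of age by sequencing of polyadenylated RNA. The comparison rests on 6 of the 30 libraries of the series, 3 from 8-month and 3 from 2-month males, chosen by the age, genotype and sex in their titles and numbered 1 to 3 in each group. No transgene and no treatment is named for these mice. The series also holds mice whose genotype label is FAD4T, of both sexes at 2 and 8 months, wild-type females at the same ages, and a separate set of wild-type males at 18 months with their own 2-month males numbered 4 to 6, with 3 libraries in each of 10 groups. The labels do not give the litter, the day or hour of dissection, or whether glands were pooled, so every p-value measures the spread between these libraries only.

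The thyroid makes thyroid hormone in follicles, hollow balls of epithelial cells around stored thyroglobulin. Pituitary thyrotropin acts on its receptor, Tshr, and drives iodide uptake (Slc5a5), oxidation and coupling of iodide to thyroglobulin (with hydrogen peroxide from Duox2 and its partner Duoxa2), and the later uptake and digestion of thyroglobulin by cathepsins. Each follicle is wrapped in a dense bed of fenestrated capillaries with their pericytes, C cells that make calcitonin lie between the follicles, and the parathyroid glands are attached to or embedded in the lobes. Mouse follicular cells divide little in adult life, and the younger of the ages compared is young adulthood for this species.

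The 6 libraries held 16214451 to 19398378 read pairs assigned to genes, within the 14083958 to 20256049 of all 30. Thyroglobulin alone took 19.6%, 18.0% and 21.4% of all counts in 8-month thyroids 1, 2 and 3, against 12.1%, 21.1% and 18.5% in 2-month thyroids 1, 2 and 3, so the tissue carried its defining transcript at both ages. Libraries stood apart by what came with the gland. Pth, the parathyroid hormone transcript, had 130.2, 17333 and 71.4 CPM at 8 months, against 10741, 9738 and 7899 CPM at 2 months, so 8-month thyroids 1 and 3 carried little parathyroid RNA and the other 4 libraries carried much. The summed level of 20 skeletal muscle genes was also uneven, at 10869, 879 and 1622 CPM at 8 months, against 1179.7, 4699 and 32.3 CPM at 2 months. The 2-month males used here also differed from the 2-month males numbered 4 to 6, which bear the same labels: 4063 of 18799 genes (21.6%) passed the test between these 2-month groups. Called genes named below are therefore also given against those males, by their values where the call was lost, and age and set cannot be told apart for them. Apart from the rest stood also 5 FAD4T libraries, with a summed level of 10 thymocyte genes of 120 to 544 CPM, beside 5.93 to 32.1 CPM in the other 19 libraries of 2 and 8 months. Without those 5, 83 genes passed as higher and 54 as lower.

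In all, 128 of 18493 tested genes passed the threshold of an adjusted p under 0.05 (0.692%), 78 of them higher (0.422%) and 50 lower (0.27%) at 8 months. An adjusted p in this text is that of edgeR's quasi-likelihood test with Benjamini-Hochberg adjustment over all tested genes, and levels are CPM, counts scaled to a common library size, so they compare libraries for a gene and not genes with each other. The rises were steep and the falls shallow: the fitted log2 fold change had a median of 2.25 over the 78 rises and -0.93 over the 50 falls, whose range was -1.74 to -0.48, beside 0.00 over all 18493 genes. Of the rises 57 were protein-coding genes and 17 were pseudogenes, and 19 had 3 or fewer counts over all 3 libraries of 2 months. Of the falls 48 were protein-coding. The groups did not overlap for any of the 128 genes, beside 21.1% of all tested genes (11.6% apart and higher, 9.52% apart and lower). With any 1 of the 6 libraries left out, 30 genes (without 2-month thyroid 1) to 55 genes (without 8-month thyroid 2) passed, and 21 of the 128 passed without each of them in turn, 14 higher and 7 lower. With the 2-month males numbered 4 to 6 as the baseline, 106 of the 128 kept their direction, 57 passed again and 2 (Fam213a and Atp5k) passed in the opposite direction, where 3494 of all 18799 tested genes (18.6%) passed in either direction.

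Receptors of growth factors, Notch ligands and ephrins were among the 50 falls, and were picked from them by role after their values had been seen. Pdgfrb, the platelet-derived growth factor receptor of pericytes, fell to 33.2, 24.8 and 31.7 CPM in the 8-month thyroids, against 60.5, 50.6 and 50.98 CPM in the 2-month thyroids (log2 fold change -0.85, SE 0.13, adjusted p = 0.00311). Notch3, the Notch receptor of vessel smooth muscle (chr17:32120820-32166880, GRCm38), had 26.4, 22.5 and 28.9 CPM at 8 months, against 45.96, 59.8 and 42.5 CPM at 2 months (log2 fold change -0.93, SE 0.17, adjusted p = 0.0117). Both kept their call with the 2-month males numbered 4 to 6 as baseline, at log2 fold changes of -0.79, adjusted p = 0.00448 for Pdgfrb and -0.55, adjusted p = 0.0393 for Notch3. Nrp1, a co-receptor for vascular endothelial growth factor and semaphorins, fell to 34.7, 33.8 and 31.9 CPM at 8 months, against 81.3, 75.3 and 55.7 CPM at 2 months (log2 fold change -1.08, SE 0.24, adjusted p = 0.0423). Tie1, a receptor tyrosine kinase of endothelial cells, was at 52.7, 41.8 and 56.5 CPM at 8 months, against 85.8, 75.98 and 72.3 CPM at 2 months (log2 fold change -0.63, SE 0.15, adjusted p = 0.0482). The ephrin receptors Epha4 and Ephb3 and the growth factor receptor Erbb2 also fell, at log2 fold changes of -1.32 ± 0.29 (SE), adjusted p = 0.0355 for Epha4, -0.90 ± 0.18 (SE), adjusted p = 0.0212 for Ephb3 and -0.48 ± 0.11 (SE), adjusted p = 0.0469 for Erbb2. For each of these genes, as for all 50 falls, the highest 8-month library lay below the lowest 2-month library. Nrp1, Tie1 and Ephb3 passed again against the 2-month males numbered 4 to 6, and the others did not, at -0.24 (adjusted p = 0.641) for Epha4 and -0.23 (adjusted p = 0.159) for Erbb2. The genes of the next paragraphs were picked in the same way.

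Among the ligands, Jag1, which binds Notch receptors on neighbouring cells (chr2:137081456-137116644), was at 23.6, 20.1 and 31.1 CPM at 8 months, against 60.7, 53.6 and 45.6 CPM at 2 months (log2 fold change -1.10, SE 0.16, adjusted p = 0.00311). It passed without each library in turn. The 2-month males numbered 4 to 6, however, had only 24.9, 19.5 and 23.2 CPM of Jag1, the level of the 8-month thyroids, and with them as baseline the log2 fold change was 0.12, adjusted p = 0.689. Wnt5a, a Wnt ligand of cell polarity, was at 9.88, 10.8 and 15.2 CPM at 8 months, against 18.6, 22.2 and 20.1 CPM at 2 months (log2 fold change -0.76, SE 0.17, adjusted p = 0.0355). Angpt2, the angiopoietin that remodels vessels, was at 3.21, 2.46 and 2.99 CPM at 8 months, against 5.79, 7.58 and 6.25 CPM at 2 months (log2 fold change -1.18, SE 0.25, adjusted p = 0.0355). Fat4, a giant cadherin of planar cell polarity (chr3:38886940-39011985), was at 4.97, 5.12 and 4.69 CPM at 8 months, against 15.3, 12.8 and 9.11 CPM at 2 months (log2 fold change -1.33, SE 0.20, adjusted p = 0.00311). Vangl2, a core membrane protein of that pathway, fell to 5.51, 6.73 and 6.27 CPM at 8 months, against 10.3, 11.99 and 11.4 CPM at 2 months (log2 fold change -0.86, SE 0.17, adjusted p = 0.0212). Dact1, which binds the Wnt transducer Dishevelled, fell by 0.99 on the log2 scale (adjusted p = 0.0355), and did not pass against the 2-month males numbered 4 to 6 (log2 fold change 0.09, adjusted p = 0.826). Against that baseline Vangl2 passed again, and log2 fold changes were -0.21 (adjusted p = 0.419) for Wnt5a, -0.56 (adjusted p = 0.128) for Angpt2 and -0.57 (adjusted p = 0.0821) for Fat4, so these 3 calls were lost.

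**Figure D1:**
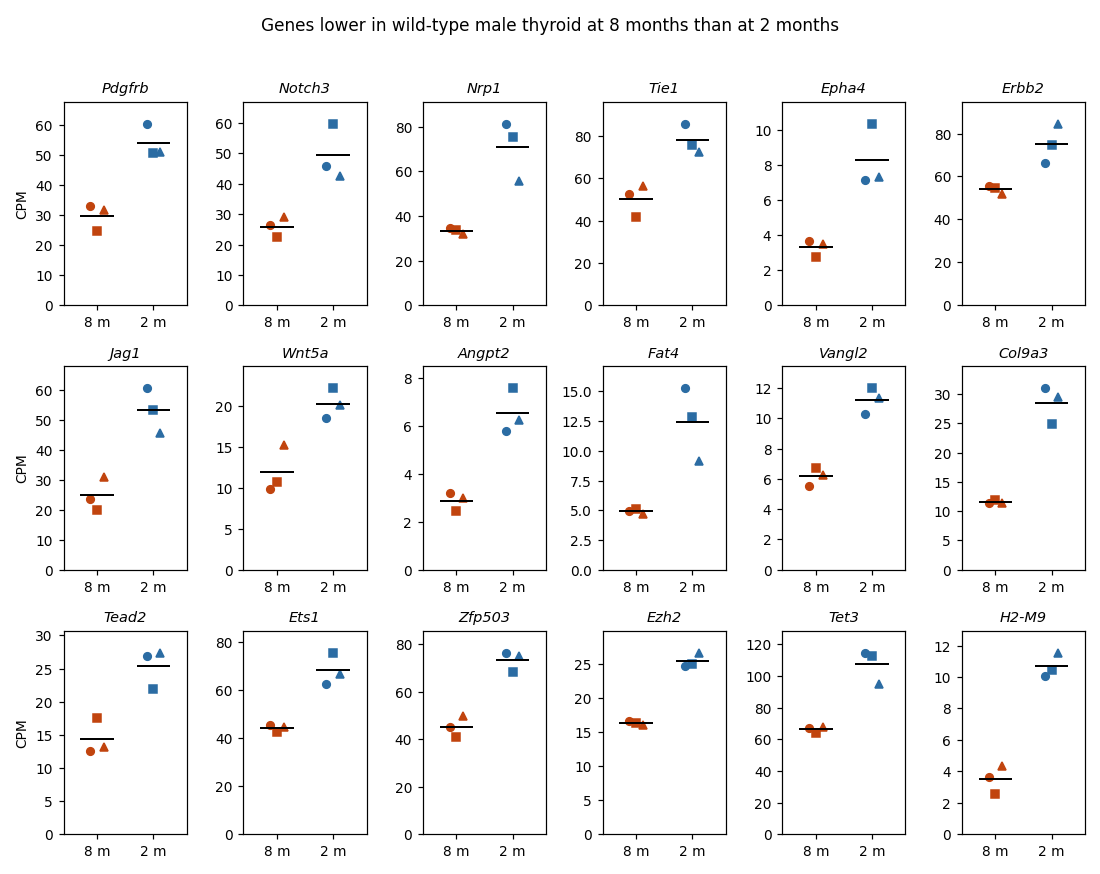
Level (CPM, linear axis from 0) of 18 genes that were lower at 8 months, in the 3 thyroids of 8-month males (left, orange) and the 3 of 2-month males (right, blue), with the circle, square and triangle for numbers 1, 2 and 3 and a bar at each mean. No orange point reaches a blue one in any panel, as held for all 50 genes called lower, and for Col9a3 the 3 orange points lie together near 11 to 12 CPM.

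Other falls were in genes acting inside the cell. Rgs4, which switches off signalling by G proteins, was at 7.21, 5.60 and 7.86 CPM at 8 months, against 14.9, 15.7 and 14.5 CPM at 2 months (log2 fold change -1.13, SE 0.17, adjusted p = 0.00335). The 2-month males numbered 4 to 6 had 9.08, 7.37 and 6.04 CPM. Fgd5, an exchange factor of endothelial cells, had 15.6, 15.6 and 19.7 CPM at 8 months, against 31.5, 38.2 and 23.9 CPM at 2 months (log2 fold change -0.88, SE 0.20, adjusted p = 0.0423). Shf, an SH2-domain adaptor, was at 4.97, 5.76 and 5.04 CPM at 8 months, against 11.7, 11.7 and 11.7 CPM at 2 months (log2 fold change -1.15, SE 0.20, adjusted p = 0.00878). Its 2-month values agreed to within rounding. Camkk1, a calcium-calmodulin kinase kinase, fell to 42.4, 36.7 and 43.03 CPM at 8 months, against 80.1, 76.8 and 74.4 CPM at 2 months (log2 fold change -0.92, SE 0.17, adjusted p = 0.0156). The phosphoinositide kinase Pik3c2b and the Ras GTPase-activating protein Rasal2 fell by 0.83 and 0.82 on the log2 scale, with adjusted p = 0.0118 for Pik3c2b and 0.0414 for Rasal2. The receptor and adaptor genes aside, Col9a3, a chain of type IX collagen (chr2:180597790-180622189), fell to 11.4, 11.96 and 11.4 CPM in 8-month thyroids, against 31.03, 24.9 and 29.6 CPM in 2-month thyroids (log2 fold change -1.30, SE 0.22, adjusted p = 0.00593). H2-M9, a non-classical class I histocompatibility gene (chr17:36639285-36642666) whose family members resemble each other closely, had 3.64, 2.56 and 4.34 CPM at 8 months, against 10.04, 10.5 and 11.6 CPM at 2 months (log2 fold change -1.61, SE 0.25, adjusted p = 0.00311). Both passed under all 17 alternatives run. Among enzymes, Pla2g4f, a cytosolic phospholipase, was at 2.73, 3.36 and 3.05 CPM at 8 months, against 11.2, 7.31 and 7.39 CPM at 2 months (log2 fold change -1.50, SE 0.32, adjusted p = 0.0345). Cd38, which hydrolyses NAD, was at 10.8, 6.40 and 7.56 CPM at 8 months, against 22.9, 15.9 and 16.3 CPM at 2 months (log2 fold change -1.16, SE 0.26, adjusted p = 0.0414). The steepest falls by the same rule also took in Zc3h11a, Sertad4 and Ccdc34, at log2 fold changes of -1.44 for Zc3h11a, -1.17 for Sertad4 and -1.13 for Ccdc34. Shf and Pla2g4f passed again against the 2-month males numbered 4 to 6. Calls were lost there at log2 fold changes of -0.15 (adjusted p = 0.630) for Rgs4, -0.21 (adjusted p = 0.504) for Fgd5, -0.33 (adjusted p = 0.231) for Camkk1, -0.31 (adjusted p = 0.148) for Pik3c2b, -0.17 (adjusted p = 0.520) for Rasal2, -0.46 (adjusted p = 0.193) for Cd38 and -0.56 (adjusted p = 0.0972) for Ccdc34. Zc3h11a and Sertad4 turned to 0.86 and 0.06 against the same males.

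The falls also held regulators of transcription and chromatin. Zfp503, a zinc finger repressor (chr14:21983962-21989601), had the smallest p among the falls, with 45.3, 40.8 and 49.7 CPM at 8 months, against 76.4, 68.5 and 74.99 CPM at 2 months (log2 fold change -0.70, SE 0.10, adjusted p = 0.00311). Tead2, a DNA-binding partner of the growth coactivator Yap, was at 12.6, 17.5 and 13.2 CPM at 8 months, against 26.9, 21.9 and 27.4 CPM at 2 months (log2 fold change -0.82, SE 0.17, adjusted p = 0.0313). Ets1, a factor of endothelial and lymphoid cells, was at 45.6, 42.5 and 44.8 CPM at 8 months, against 62.6, 75.6 and 66.5 CPM at 2 months (log2 fold change -0.62, SE 0.14, adjusted p = 0.0355). The factors Hlx, Arid5b and Rarg (a retinoic acid receptor) fell by 1.13, 0.73 and 0.58 on the log2 scale (adjusted p = 0.0355, 0.0326 and 0.0482). Ezh2, the enzyme that methylates histone H3 on lysine 27, was at 16.7, 16.4 and 16.1 CPM at 8 months, against 24.8, 25.1 and 26.7 CPM at 2 months (log2 fold change -0.64, SE 0.14, adjusted p = 0.0414). Tet3, which oxidises 5-methylcytosine, had 66.8, 64.1 and 68.01 CPM at 8 months, against 115, 113 and 94.7 CPM at 2 months (log2 fold change -0.70, SE 0.14, adjusted p = 0.0212). For Ezh2 and Tet3 the 3 values of each age lay close together and the ages were apart, as they were for all 50 falls. Against the 2-month males numbered 4 to 6, Tead2 passed again (log2 fold change -1.27, adjusted p = 0.000100), as did Hlx, Arid5b and Rarg. The other calls were lost, at log2 fold changes of -0.14 (adjusted p = 0.453) for Zfp503, -0.03 (adjusted p = 0.889) for Ets1, -0.35 (adjusted p = 0.0815) for Ezh2 and -0.28 (adjusted p = 0.192) for Tet3.

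The vessel lists had lower values throughout and few calls. Of 14 endothelial genes, all 14 had a negative log2 fold change, with a median of -0.51 beside 0.00 over all genes, and 1 (Tie1) passed the test. Emcn, an endothelial sialomucin, was at 89.4, 63.8 and 76.5 CPM at 8 months, against 140.2, 88.7 and 108 CPM at 2 months (log2 fold change -0.55, SE 0.17, adjusted p = 0.158). Plvap, the diaphragm protein of fenestrated capillaries, was at 154, 101 and 138 CPM at 8 months, against 247, 176 and 176 CPM at 2 months (log2 fold change -0.61, SE 0.20, adjusted p = 0.185). The 14 genes summed to 2174, 1743 and 2038 CPM in 8-month thyroids and to 3147, 2599.6 and 2466 CPM in 2-month thyroids, so the sums did not overlap. In such bulk samples, fewer cells of a type and less RNA per cell cannot be told apart, and the part of the lower endothelial sum in the falls of Tie1, Nrp1, Fgd5 and Ets1 was not tested. Of 8 smooth muscle and pericyte genes, 7 were lower, with a median of -0.53 and 1 call (Pdgfrb). Rgs5, a pericyte gene, was at 211, 153 and 217 CPM at 8 months, against 358, 289 and 282 CPM at 2 months (log2 fold change -0.68, SE 0.17, adjusted p = 0.0803). Des, which skeletal muscle also makes, was the exception, at 272, 31.8 and 57.5 CPM at 8 months, against 41.5, 108 and 10.3 CPM at 2 months (adjusted p = 0.809). Against the 2-month males numbered 4 to 6 the medians were -0.58 for the endothelial and -0.78 for the pericyte list, with 4 of 14 endothelial genes passing, beside 18.6% of all genes.

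Collagen and matrix genes had lower values at 8 months without a call. Of 22 such genes 20 had lower values at 8 months and none passed, with a median log2 fold change of -0.38 and 9 genes at an unadjusted p under 0.05, beside 11.7% of all genes in either direction. Next to Postn, the fibrillar collagens had the most negative values. Col3a1 had 84.3, 75.04 and 113 CPM at 8 months, against 185, 179 and 200.4 CPM at 2 months (log2 fold change -1.05, SE 0.26, adjusted p = 0.0629). Col1a2 had 58.4, 41.9 and 61.8 CPM at 8 months, against 98.8, 109 and 107 CPM at 2 months (log2 fold change -0.96, SE 0.24, adjusted p = 0.0734), and Col1a1 had 31.6, 24.6 and 34.2 CPM at 8 months, against 64.3, 60.5 and 66.9 CPM at 2 months (log2 fold change -1.08, SE 0.37, adjusted p = 0.199). For all 3 genes every 8-month value lay below every 2-month value, as it did for 9.52% of all tested genes. Basement membrane collagen Col4a1 and the small proteoglycan Dcn had smaller differences, with log2 fold changes of -0.39 ± 0.29 (SE), adjusted p = 0.701 for Col4a1 and -0.36 ± 0.21 (SE), adjusted p = 0.549 for Dcn. Col12a1 had the opposite sign, at 52.8, 56.04 and 59.04 CPM at 8 months, against 27.1, 37.95 and 38.1 CPM at 2 months (log2 fold change 0.70, SE 0.38, adjusted p = 0.514). The list had, against the 2-month males numbered 4 to 6, a median of -0.39 and 7 calls of 22, beside 18.6% of all genes.

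**Figure D2:**
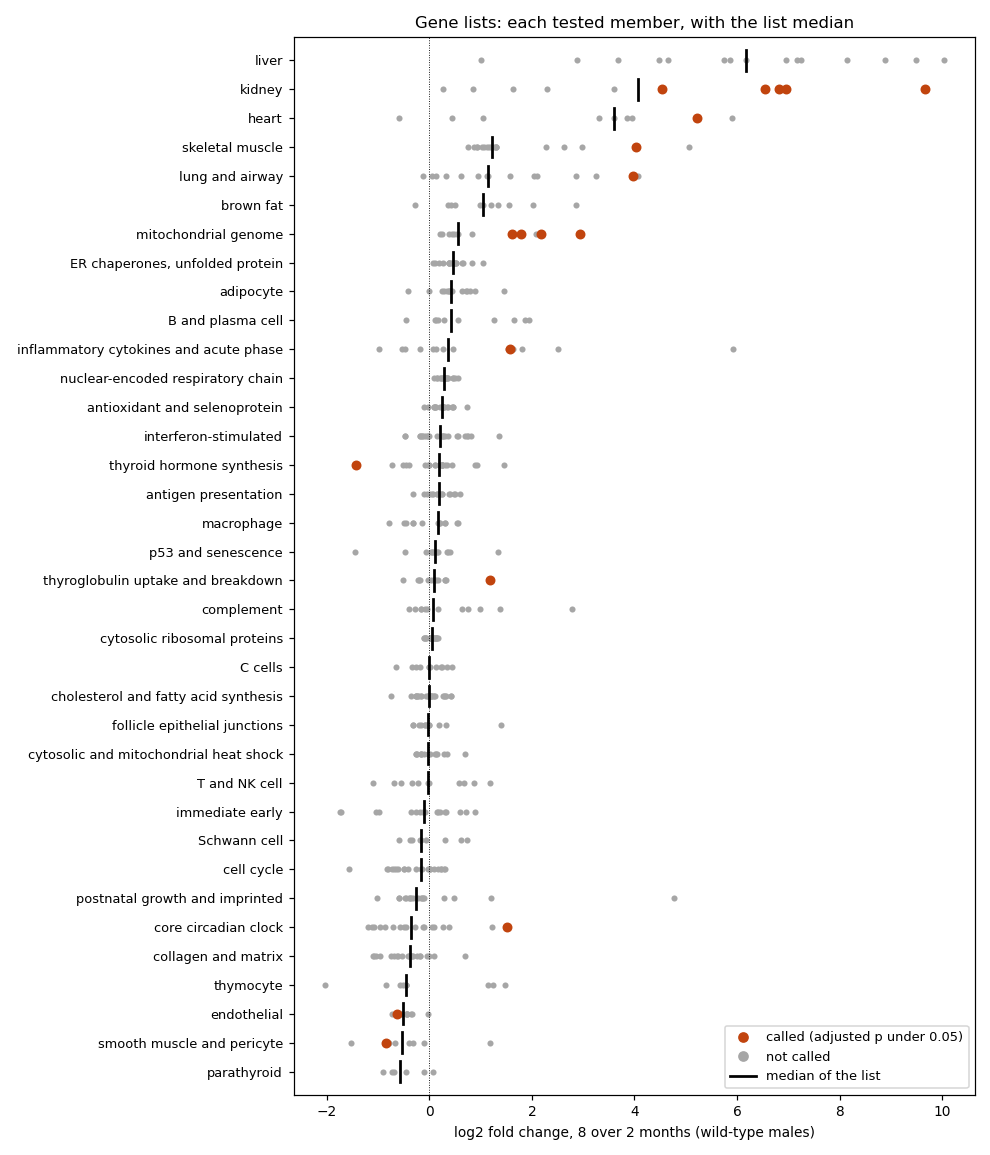
Log2 fold change at 8 over 2 months in wild-type males (horizontal axis) of every tested member of 36 gene lists, 1 row per list ordered by its median, with genes that passed the test in orange, others in grey and the median as a black bar. Liver, kidney and heart genes lie far to the right, endothelial, pericyte and parathyroid lists lie furthest to the left, and most lists have no orange point. Values of genes with 0 counts at 2 months depend on the prior count of the fit.

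Among the protein-coding rises Kif5c had the smallest p. This gene, a kinesin heavy chain best known from neurons (chr2:49619298-49774778), rose to 37.7, 32.3 and 36.8 CPM in 8-month thyroids, against 17.9, 16.7 and 13.1 CPM in 2-month thyroids (log2 fold change 1.16, SE 0.17, adjusted p = 0.00311). It passed under all 17 alternatives. Ism2, a secreted isthmin protein (chr12:87278638-87299705), was at 10.7, 10.2 and 12.7 CPM at 8 months, against 0.681, 1.98 and 1.73 CPM at 2 months (log2 fold change 2.94, SE 0.48, adjusted p = 0.00503) and also passed under all of them. Slc25a42, the mitochondrial carrier of coenzyme A (chr8:70184340-70212305), had 36.8, 41.3 and 39.4 CPM at 8 months, against 22.4, 24.6 and 19.8 CPM at 2 months (log2 fold change 0.82, SE 0.14, adjusted p = 0.00543). Adra1a, an alpha-1 adrenergic receptor, was at 8.36, 5.23 and 6.63 CPM at 8 months, against 1.19, 1.91 and 2.86 CPM at 2 months (log2 fold change 1.76, SE 0.30, adjusted p = 0.00708). Adamts13, the protease that trims von Willebrand factor, was at 3.999, 3.68 and 3.99 CPM at 8 months, against 0.340, 0.395 and 0.596 CPM at 2 months (log2 fold change 3.11, SE 0.51, adjusted p = 0.00512). All 5 genes, like all 78 rises, were higher in every 8-month library than in any 2-month library. Each of the 5 passed again against the 2-month males numbered 4 to 6.

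Cyp27b1, the enzyme that makes active vitamin D, rose to 15.3, 21.1 and 14.3 CPM at 8 months, against 3.29, 3.69 and 3.04 CPM at 2 months (log2 fold change 2.34, SE 0.45, adjusted p = 0.0187). Csmd2, a transmembrane protein with complement-control domains, was at 4.12, 7.42 and 3.93 CPM at 8 months, against 0.794, 0.593 and 0.655 CPM at 2 months (log2 fold change 2.91, SE 0.63, adjusted p = 0.0355). Snap91, a clathrin adaptor of synapses, and Cpeb1, which controls poly(A) tails in the cytoplasm, rose by log2 fold changes of 1.14 ± 0.23 (SE), adjusted p = 0.0212 for Snap91 and 0.82 ± 0.19 (SE), adjusted p = 0.0479 for Cpeb1. B3galt1, a galactosyltransferase, was at 12.1, 10.7 and 12.5 CPM at 8 months, against 3.40, 4.41 and 5.96 CPM at 2 months (log2 fold change 1.36, SE 0.30, adjusted p = 0.0414). None of these 5 had overlapping groups, as held for all 78 rises, and each of the 5 passed again against the 2-month males numbered 4 to 6. Gm26917, a long non-coding RNA model on chromosome 17, rose steeply and unevenly, with 884, 391 and 909 CPM at 8 months, against 77.1, 17.3 and 36.9 CPM at 2 months (log2 fold change 4.05, SE 0.65, adjusted p = 0.00512). It was as high in 8-month FAD4T males, at 904, 884 and 835 CPM, and low in 8-month wild-type females, at 46.2, 51.1 and 28.2 CPM. Gm26917 passed again against the 2-month males numbered 4 to 6. Its call was lost with the 6 libraries alone and with the 12 wild-type libraries alone. The source of its reads was not tested.

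Inflammation and scavenging genes gave single calls. Cxcl10, an interferon-induced chemokine, rose to 16.2, 10.7 and 12.8 CPM at 8 months, against 5.33, 2.83 and 5.18 CPM at 2 months (log2 fold change 1.57, SE 0.32, adjusted p = 0.0237), and was the 1 call among 14 cytokine and acute-phase genes. Lgals3, galectin-3, which binds glycoproteins and marks macrophages and some follicular cells, was at 30.9, 27.8 and 38.2 CPM at 8 months, against 15.5, 12.7 and 14.4 CPM at 2 months (log2 fold change 1.19, SE 0.23, adjusted p = 0.0187). Anxa1, an anti-inflammatory annexin, was at 309, 184 and 383 CPM at 8 months, against 139, 102 and 132 CPM at 2 months (log2 fold change 1.23, SE 0.28, adjusted p = 0.0450). Bcl6, a transcriptional repressor, was at 31.2, 28.5 and 25.5 CPM at 8 months, against 14.9, 13.8 and 11.4 CPM at 2 months (log2 fold change 1.09, SE 0.22, adjusted p = 0.0224). Mmp13, a collagenase, had 5.39, 2.35 and 4.51 CPM at 8 months, against 0.397, 0.0659 and 0.417 CPM at 2 months (log2 fold change 3.74, SE 0.73, adjusted p = 0.0204). Of these 5 genes, all but Bcl6 (log2 fold change 0.65, adjusted p = 0.0975) passed again against the 2-month males numbered 4 to 6. The immune lists gave no call: none of 14 macrophage, 11 T and NK cell, 10 thymocyte, 10 B and plasma cell, 24 interferon-stimulated, 17 antigen presentation or 12 complement genes passed. Their medians ran from -0.46 for thymocyte genes to 0.43 for B and plasma cell genes. Against the 2-month males numbered 4 to 6, 9 of 17 antigen presentation, 6 of 24 interferon-stimulated and 2 of 12 complement genes passed. Of all genes 18.6% passed there. With that baseline the medians were -0.51 for antigen presentation, -0.13 for interferon-stimulated, -0.77 for B and plasma cell and 1.26 for thymocyte genes. Leaving out 1 library moved the thymocyte median between -0.84 (without 8-month thyroid 1) and 0.00 (without 8-month thyroid 2). That of B and plasma cell genes moved between 0.25 (without 2-month thyroid 3) and 0.90 (without 2-month thyroid 1). The medians of macrophage, T and NK cell and complement genes changed sign in such fits. Those of antigen presentation (0.10 to 0.32) and interferon-stimulated genes (0.07 to 0.26) stayed positive. Among the members of the immune lists, Ccl5, a T cell chemokine, was at 1.09, 1.55 and 1.70 CPM at 8 months, against 0.965, 0.264 and 0.655 CPM at 2 months (adjusted p = 0.626). Cd163, a scavenger receptor of tissue macrophages, was at 8.42, 8.11 and 7.92 CPM at 8 months, against 9.64, 18.3 and 14.5 CPM at 2 months (adjusted p = 0.179). The complement gene C7 was at 11.5, 8.75 and 17.5 CPM at 8 months, against 2.95, 6.92 and 4.71 CPM at 2 months (log2 fold change 1.38, SE 0.37, adjusted p = 0.0991).

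Single genes of energy metabolism rose, and whole lists had higher values without a call. Pdk4, the kinase that restrains pyruvate dehydrogenase, was at 82.3, 127 and 67.7 CPM at 8 months, against 25.5, 45.3 and 21.3 CPM at 2 months (log2 fold change 1.59, SE 0.36, adjusted p = 0.0465). Cycs, cytochrome c, was at 180.0, 126 and 159 CPM at 8 months, against 85.7, 108 and 89.8 CPM at 2 months (log2 fold change 0.72, SE 0.16, adjusted p = 0.0467). Each age was apart from the other for both, and against the 2-month males numbered 4 to 6 neither passed, at log2 fold changes of 0.44 (adjusted p = 0.500) for Pdk4 and 0.34 (adjusted p = 0.212) for Cycs. Ephx2, soluble epoxide hydrolase, was at 92.8, 91.3 and 89.5 CPM at 8 months, against 60.4, 58.3 and 61.2 CPM at 2 months (log2 fold change 0.60, SE 0.14, adjusted p = 0.0431), and at -0.02, adjusted p = 0.932 against those other males. Fabp3, a fatty acid binding protein of muscle and brown fat, was at 34.6, 28.2 and 23.4 CPM at 8 months, against 3.80, 5.996 and 4.11 CPM at 2 months (log2 fold change 2.63, SE 0.54, adjusted p = 0.0297), with 36.5, 25.4 and 93.9 CPM in the 2-month males numbered 4 to 6, where the direction turned (log2 fold change -0.88, adjusted p = 0.270). The summed level of 11 brown fat genes was 519, 386 and 389 CPM at 8 months, against 221, 277 and 205 CPM at 2 months, and its part in these rises was not tested. Fam213a, a peroxiredoxin-like enzyme, and Atp5k, an ATP synthase subunit, rose here by log2 fold changes of 0.80 ± 0.15 (SE), adjusted p = 0.0118 for Fam213a and 1.08 ± 0.23 (SE), adjusted p = 0.0338 for Atp5k, and fell against the 2-month males numbered 4 to 6 (-0.47, adjusted p = 0.0195 and -1.19, adjusted p = 0.00234). All 20 nuclear respiratory chain genes had a positive log2 fold change with a median of 0.29, and none passed. That median turned to -0.52 against the 2-month males numbered 4 to 6, with 10 calls, beside 18.6% of all genes. All 20 endoplasmic reticulum chaperone and unfolded protein genes were higher too, with a median of 0.46, and none passed; against the males numbered 4 to 6 it was 0.82 with 5 calls of 20, beside 18.6% of all genes. Hspa5, the main chaperone of that compartment, was at 2087, 1799 and 2269.9 CPM at 8 months, against 818, 1712 and 1366 CPM at 2 months (adjusted p = 0.6998). Dnajb9, its cochaperone, was at 284, 259.8 and 335 CPM at 8 months, against 97.9, 187 and 142 CPM at 2 months (adjusted p = 0.431). In 13 of the 20 the age groups did not overlap, beside 11.6% of all genes that were apart and higher. Of 21 antioxidant and selenoprotein genes 19 were higher and none passed, with a median of 0.25 that turned to -0.23 with that other baseline. The 2-month thyroid 1, which had the lowest thyroglobulin share, also had the lowest Hspa5 value, and its part in this difference was not tested.

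Of the mitochondrial genome, a few transcripts rose. All 13 protein-coding mitochondrial genes were higher at 8 months, with a median log2 fold change of 0.56. Of them 4 passed (with any 1 of the 6 libraries left out 2, mt-Atp6 and mt-Atp8), beside 0.422% of all tested genes as higher. The 4 were mt-Atp6, mt-Atp8, mt-Co2 and mt-Co3, which encode subunits of ATP synthase and cytochrome c oxidase. mt-Atp6 rose to 39.4, 25.1 and 32.95 CPM at 8 months, against 9.47, 6.39 and 5.78 CPM at 2 months (log2 fold change 2.17, SE 0.32, adjusted p = 0.00311). mt-Co2 was at 53.7, 44.2 and 50.4 CPM at 8 months, against 20.9, 13.4 and 14.1 CPM at 2 months (log2 fold change 1.61, SE 0.35, adjusted p = 0.0366). The neighbouring mt-Co1 took 17443, 14850 and 16468 CPM at 8 months, against 10251, 14297 and 8556 CPM at 2 months (log2 fold change 0.56, SE 0.30, adjusted p = 0.509), and its groups nearly met. Nuclear pseudogenes of the same sequence family rose with them, among them Gm29216 at 42.5, 36.6 and 40.05 CPM at 8 months, against 8.74, 5.47 and 7.27 CPM at 2 months (log2 fold change 2.47, SE 0.32, adjusted p = 0.00311). Another, Gm13341, was at 35.3, 31.8 and 29.96 CPM at 8 months, against 7.89, 5.996 and 6.13 CPM at 2 months (log2 fold change 2.27, SE 0.33, adjusted p = 0.00311). Reads that match both a mitochondrial gene and a nuclear copy may be lost or split in counting, so these values are uncertain. None of these 6 rises passed against the 2-month males numbered 4 to 6, at log2 fold changes of 0.06 (adjusted p = 0.923) for mt-Atp6, -0.26 (adjusted p = 0.721) for mt-Atp8, -0.60 (adjusted p = 0.239) for mt-Co2, -0.20 (adjusted p = 0.757) for mt-Co3, -0.11 (adjusted p = 0.841) for Gm29216 and 0.74 (adjusted p = 0.128) for Gm13341. Those males had 18.5, 29.1 and 44.3 CPM of mt-Atp6, and the list's median against them was -0.26, with no call.

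**Figure D3:**
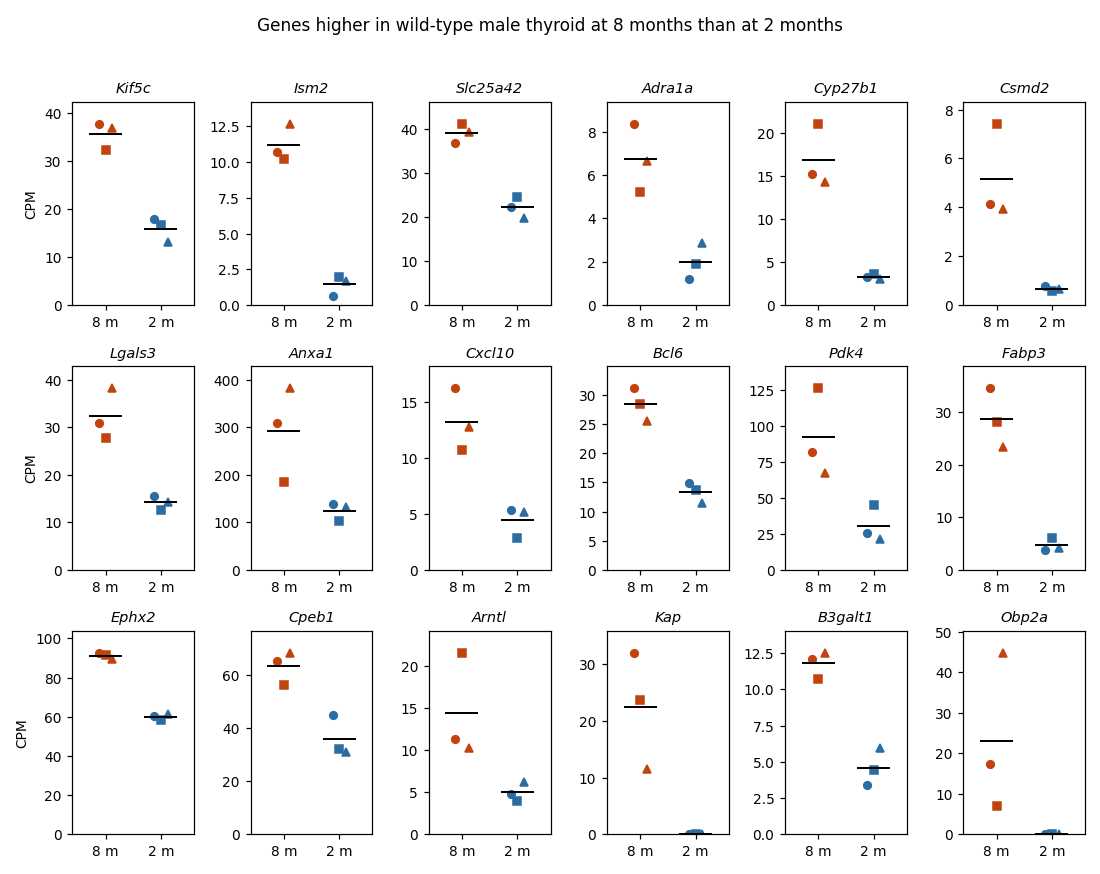
Level (CPM, linear axis from 0) of 18 genes that were higher at 8 months, in the 3 thyroids of 8-month males (left, orange) and the 3 of 2-month males (right, blue), with the circle, square and triangle for numbers 1, 2 and 3 and a bar at each mean. Kif5c and Slc25a42 have narrow groups that are well apart, whereas Kap and Obp2a lie at or next to 0 in all 3 thyroids of 2 months.

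Transcripts of other organs appeared at 8 months and were at or near 0 at 2 months. Kidney genes gave most of the calls: 5 of 10 passed, all higher, beside 0.422% of all tested genes. Without 2-month thyroid 3 only 1 passed, and without any other of the 6 libraries at most 3. Their median log2 fold change was 3.56 when genes at 0 to 3 counts are set to their bound or ratio. Kap, the androgen-regulated protein of proximal tubules, had 1170 counts over the 3 libraries of 8 months and 1 over those of 2 months, a ratio of levels of 1110 (95% counting interval 199 to 43860). Per library Kap was at 32.1, 23.8 and 11.5 CPM at 8 months, against 0, 0 and 0.0596 CPM at 2 months. Slc34a1, the phosphate transporter of the same tubules, was at 5.03, 2.94 and 2.23 CPM at 8 months, against 0.0567, 0 and 0 CPM at 2 months, a ratio of 167 (95% counting interval 29.6 to 6629). Umod, uromodulin, was at 2.42, 2.40 and 1.23 CPM at 8 months, against 0.227, 0 and 0 CPM at 2 months. Slc12a1 and Slc22a6, transporters of the tubule, had 0 counts at 2 months and were at least 11.4-fold and 13.9-fold higher against a floor of 3 counts over the group. All 5 passed again against the 2-month males numbered 4 to 6. These transcripts were present in all 3 thyroids of 8 months. The 10 genes summed to 60.9, 43.4 and 29.4 CPM at 8 months, against 14.8, 8.63 and 8.81 CPM at 2 months, and the earlier sums came mostly from Cyp4b1, at 14.01, 8.50 and 8.04 CPM.

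Liver genes had the largest median of the lists and no call. All 15 were higher in every 8-month library than in any 2-month library, beside 11.6% of all tested genes. Their median log2 fold change was 6.17, and none passed. When the 6 libraries were fitted alone 13 of the 15 passed, beside 2.77% of all genes, and against the 2-month males numbered 4 to 6 11 did, beside 18.6%. Alb, serum albumin, was at 322, 157 and 273 CPM at 8 months, against 0, 0 and 1.55 CPM at 2 months (log2 fold change 8.89, SE 2.34, adjusted p = 0.100). Apoa1, the main protein of high density lipoprotein, was at 36.8, 18.04 and 32.6 CPM at 8 months, against 0, 0 and 0.0596 CPM at 2 months, a ratio of 1423 (95% counting interval 255 to 56260), with adjusted p = 0.0849. Outside the list, Hamp, hepcidin, passed, with 128 counts at 8 months and 0 at 2 months, at least 40.5-fold higher. The spread behind these p-values was estimated over 24 libraries, 1 of which, from 2-month wild-type female 1, held 183 CPM of Apoa1. Genes of nasal glands were among the steepest rises. Obp2a and Obp2b, near-identical odorant-binding proteins, had 17.3, 6.83 and 44.8 CPM and 12.97, 4.11 and 39.8 CPM at 8 months and 0 counts at 2 months, at least 372-fold and 307-fold higher. Hamp, Obp2a and Obp2b passed again against the 2-month males numbered 4 to 6. Heart genes added Nppa, the atrial peptide, at 0.909, 0.961 and 1.17 CPM at 8 months, against 0.0567, 0 and 0 CPM at 2 months. Myl2, a ventricular myosin light chain, was at 2.000, 1.44 and 3.40 CPM at 8 months, against 0, 0 and 0 CPM at 2 months. Nppa passed again against the 2-month males numbered 4 to 6, and Myl2 did not (log2 fold change 0.23, adjusted p = 0.889). The 10 genes of the heart list, which holds Nppa and not Myl2, summed to 18.00, 36.03 and 66.9 CPM at 8 months and to 10.6, 7.25 and 7.92 CPM at 2 months.

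The same transcripts were followed in the other groups. Kap was at 21.5, 23.02 and 14.9 CPM in 8-month FAD4T males and at 0 in all of their 2-month counterparts, at 9.15, 1.95 and 0.0653 CPM in 8-month wild-type females, and at 0 in all 3 males of 18 months. Apoa1 was at 25.3, 36.1 and 35.3 CPM in 8-month FAD4T males and at 15.3, 15.3 and 15.2 CPM in 8-month FAD4T females. In wild-type females it was at 37.7, 12.4 and 15.2 CPM at 8 months, against 183, 0.0604 and 0.340 CPM at 2 months. In the ageing set it was at 0.0547, 0 and 0.116 CPM at 18 months, against 0.840, 0.549 and 1.42 CPM in the 2-month males numbered 4 to 6. Both transcripts were thus found in these 8-month libraries, Apoa1 also in 2-month wild-type female 1, and lay at or near 0 at 18 months. Their source was not tested.

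**Figure D4:**
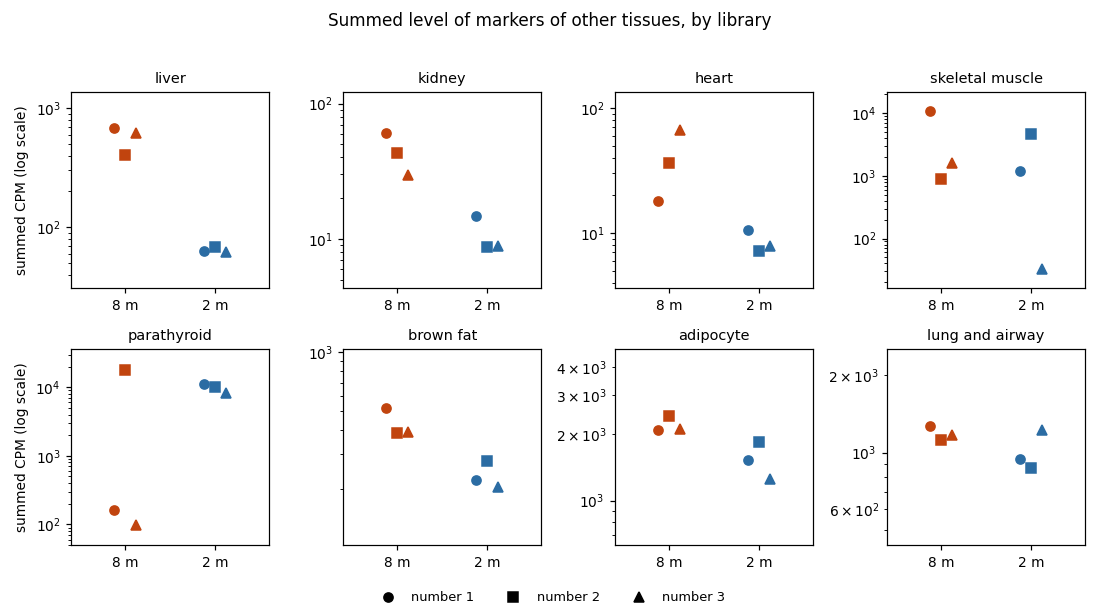
Summed level (CPM, log axis) of 8 lists of markers of other tissues in each thyroid of 8-month males (left, orange) and 2-month males (right, blue), with the circle, square and triangle for numbers 1, 2 and 3. Liver, kidney, heart and brown fat sums are higher in all 3 thyroids of 8 months, while skeletal muscle and parathyroid sums spread over more than 10-fold between thyroids of 8 months.

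Fat markers were present at both ages. Of 11 brown fat genes 10 were higher at 8 months, with a median log2 fold change of 1.04 and no call. Ucp1, which lets brown fat make heat, was at 191, 103 and 109 CPM at 8 months, against 50.9, 78.5 and 45.9 CPM at 2 months (log2 fold change 1.20, SE 0.57, adjusted p = 0.431). Cox8b, a cytochrome oxidase subunit of brown fat and muscle, was at 41.02, 30.6 and 33.1 CPM at 8 months, against 13.8, 12.8 and 9.17 CPM at 2 months (log2 fold change 1.55, SE 0.42, adjusted p = 0.100). Of 15 adipocyte genes 13 were higher with a median of 0.43 and no call, among them Adipoq, adiponectin, at 80.2, 97.7 and 99.7 CPM at 8 months, against 49.4, 57.3 and 43.3 CPM at 2 months (log2 fold change 0.89, SE 0.28, adjusted p = 0.158). The 3 values of each age were apart for Ucp1, Cox8b and Adipoq, beside 11.6% of all tested genes that were apart and higher. Against the 2-month males numbered 4 to 6 the medians were 0.00 for brown fat and -0.58 for adipocyte genes. Of 18 skeletal muscle genes tested all were higher, with a median of 1.23, and 1, the slow myosin Myh7 that heart also makes, passed, at 1.39, 0.640 and 1.29 CPM at 8 months, against 0.0567, 0.132 and 0 CPM at 2 months. The muscle median turned to -2.31 with the other baseline and to -0.61 without 8-month thyroid 1, and was 2.80 without 2-month thyroid 2 and 0.65 without 2-month thyroid 3. Of 15 lung and airway genes 14 were higher, with a median of 1.14 and 1 call, Sec14l3, at 5.64, 1.39 and 3.69 CPM at 8 months, against 0.397, 0.132 and 0.119 CPM at 2 months (log2 fold change 3.98, SE 0.89, adjusted p = 0.0423). With those males as baseline Sec14l3 had a log2 fold change of 0.51, adjusted p = 0.756, and Myh7 passed again. None of 6 parathyroid genes passed and 5 were lower, with a median of -0.57. That median was -3.94 without 8-month thyroid 2, 0.00 without 8-month thyroid 1 or 3, and -0.17 without 2-month thyroid 2. Of 12 C cell genes tested none passed, with a median of 0.00 and the smallest adjusted p (0.597) for Syp. Calca, the calcitonin gene, had 4903, 3016 and 5822 CPM at 8 months, against 5148, 4349 and 4373 CPM at 2 months.

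The genes of thyroid hormone synthesis gave 1 call. Of 23 genes 15 were higher and 8 lower, with a median log2 fold change of 0.18. Duox1, a dual oxidase whose gene lies beside Duoxa1 and was counted without regard to strand, fell to 1.33, 1.39 and 1.17 CPM at 8 months, against 5.33, 1.91 and 3.34 CPM at 2 months (log2 fold change -1.44, SE 0.32, adjusted p = 0.0392). It passed again against the 2-month males numbered 4 to 6. Its call was lost in 11 of the 17 alternatives, among them the 6 libraries alone. It was also lost without any 1 of the 6 libraries other than 2-month thyroid 2. Duoxa2, the maturation factor of Duox2, was at 54.4, 33.9 and 45.1 CPM at 8 months, against 75.3, 65.4 and 81.9 CPM at 2 months (log2 fold change -0.74, SE 0.20, adjusted p = 0.102). Duox2 itself was at 63.99, 51.5 and 56.5 CPM at 8 months, against 42.9, 55.5 and 52.9 CPM at 2 months (log2 fold change 0.18, SE 0.21, adjusted p = 0.846). Tshr had the largest positive value, with 117, 159 and 93.7 CPM at 8 months, against 41.9, 45.5 and 47.7 CPM at 2 months (log2 fold change 1.45, SE 0.41, adjusted p = 0.123). The lowest 8-month value of Tshr lay far above the highest 2-month value, yet Tshr did not pass in the main fit. It was called in 5 of the 17 alternatives. In 18-month males it was at 119, 102 and 145 CPM, against 32.2, 40.6 and 45.6 CPM in their own 2-month males (log2 fold change 1.59, SE 0.17, adjusted p = 0.000981).

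Tg and Slc5a5 overlapped between ages, with 2-month thyroid 1 lowest for both. Slc5a5, the iodide symporter, was at 427, 251 and 384 CPM at 8 months, against 162, 444 and 292 CPM at 2 months (log2 fold change 0.24, SE 0.58, adjusted p = 0.939). Log2 fold changes were 0.25 ± 0.55 (SE), adjusted p = 0.931 for Tg, 0.24 ± 0.43 (SE), adjusted p = 0.911 for Iyd, which recovers iodide, and 0.35 ± 0.36 (SE), adjusted p = 0.821 for Dio1, a deiodinase. Of the factors that set thyroid identity, Pax8 had 0.11 ± 0.21 (SE), adjusted p = 0.917, Foxe1 -0.02 ± 0.41 (SE), adjusted p = 0.995, and Hhex 0.00, all as log2 fold changes. Nkx2-1, another of these factors, was at 445, 309 and 431 CPM at 8 months, against 653, 449 and 521 CPM at 2 months (log2 fold change -0.45, SE 0.20, adjusted p = 0.350). Other members were Slc26a4, Slc26a7, Ano1, Duoxa1, Dio2, Slc16a10, Kcnq1, Kcne2 and Gnas, with log2 fold changes from -0.51 for Kcnq1 to 0.92 for Slc26a4. Of 15 genes of thyroglobulin uptake and breakdown 10 were higher and only Lgals3 passed. Cathepsin D (Ctsd) was at 683, 688 and 748 CPM at 8 months, against 481, 538 and 670.5 CPM at 2 months (adjusted p = 0.764). Cathepsin B (Ctsb) was at 1014, 974 and 1039.6 CPM at 8 months, against 856, 946 and 1059.8 CPM at 2 months. Of 15 junction and keratin genes of the follicle wall 12 were lower with a median of -0.02, and none passed.

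Growth, division and stress lists gave no calls at 8 months. None of 23 cell cycle genes passed (median log2 fold change -0.17), and the smallest adjusted p, of Bub1b, was 0.604. Mki67, a marker of dividing cells, was at 2.67, 2.51 and 3.87 CPM at 8 months, against 2.89, 3.29 and 3.99 CPM at 2 months. Top2a, needed to part chromosomes, was at 1.51, 1.33 and 2.70 CPM at 8 months, against 2.55, 2.97 and 3.39 CPM at 2 months. None of 18 postnatal growth and imprinted genes passed, with 14 lower and a median of -0.27. Of these Igfbp5, an insulin-like growth factor binding protein, had 146, 133 and 191 CPM at 8 months, against 198, 223 and 198 CPM at 2 months (log2 fold change -0.40, SE 0.18, adjusted p = 0.383). None of 14 p53 and senescence genes passed (median 0.11). Cdkn1a (p21) was at 33.2, 27.7 and 33.8 CPM at 8 months, against 18.04, 26.3 and 30.7 CPM at 2 months. Gdf15, a stress cytokine, was at 19.5, 17.03 and 18.9 CPM at 8 months, against 8.57, 5.27 and 8.04 CPM at 2 months (log2 fold change 1.34, SE 0.41, adjusted p = 0.146). Of the other lists, 9 Schwann cell genes had a median of -0.16, 19 immediate early genes -0.10, 16 heat shock genes -0.03, 26 cholesterol and fatty acid synthesis genes -0.01 and 20 ribosomal protein genes 0.04, with no call in any. The ribosomal median was -0.57 against the 2-month males numbered 4 to 6. None of 5 sex-linked genes passed.

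The circadian clock list had 1 call and a divided pattern. Clock proteins Arntl and Clock switch on genes through E-boxes, among them the Per and Cry repressors and the factors Dbp, Tef and Hlf, which act in turn through D-boxes, while Ror and Rev-erb receptors act on Arntl through their own element. Arntl rose to 11.3, 21.6 and 10.2 CPM at 8 months, against 4.82, 3.89 and 6.25 CPM at 2 months (log2 fold change 1.52, SE 0.35, adjusted p = 0.0482). This call was lost with any 1 of the 6 libraries left out, and the list had no call in those fits. It was also lost with the replicate number as a block. Dbp, an output factor, was at 112, 89.9 and 123 CPM at 8 months, against 282, 223 and 237 CPM at 2 months (log2 fold change -1.19, SE 0.31, adjusted p = 0.0907). Hlf was at 32.8, 17.3 and 29.6 CPM at 8 months, against 46.8, 62.9 and 46.3 CPM at 2 months (log2 fold change -0.97, SE 0.25, adjusted p = 0.0898). Per3, a period gene, was at 58.3, 44.5 and 60.4 CPM at 8 months, against 142, 123 and 88.7 CPM at 2 months (log2 fold change -1.12, SE 0.38, adjusted p = 0.187). Per2 and Tef had log2 fold changes of -1.08 ± 0.46 (SE), adjusted p = 0.349 for Per2 and -0.72 ± 0.29 (SE), adjusted p = 0.306 for Tef, and Nr1d1 (Rev-erb alpha) of 0.04 ± 0.20 (SE), adjusted p = 0.973. Over the 18 genes 6 were higher and 12 lower, with a median of -0.36, and 8 passed against the 2-month males numbered 4 to 6, Arntl among them, beside 18.6% of all genes, with a median of -0.72. The age groups did not overlap for Arntl, Dbp, Hlf, Per3, Per2 or Tef. Of the 18 genes 3 were apart and higher and 6 apart and lower, beside 11.6% and 9.52% of all tested genes. The hour of dissection is not in the labels, so age and hour cannot be told apart for these genes.

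The promoters of Arntl, Per3 and Tef are shown because they hold elements through which the clock acts. They run from 250 bases before to 50 after a RefSeq transcription start on GRCm38.p6, 5′ to 3′ on the gene's strand, with a match in capitals. Of 2 Arntl promoters in the table, which overlap, the one that starts further downstream (chr7:113207261-113207560, plus strand) holds TAGGTCA, the core of the element bound by Ror and Rev-erb receptors, 30 bases after the start, and the other (chr7:113207215-113207514, plus strand) holds none of the letters searched. The Per3 promoter (chr4:151044616-151044915, minus strand) holds the D-box TTATGTAA 205 and 158 bases before the start. The first of 2 Tef promoters (chr15:81802423-81802722, plus strand) holds the E-box CACGTG 127 bases before the start, and the second also holds it.
Arntl: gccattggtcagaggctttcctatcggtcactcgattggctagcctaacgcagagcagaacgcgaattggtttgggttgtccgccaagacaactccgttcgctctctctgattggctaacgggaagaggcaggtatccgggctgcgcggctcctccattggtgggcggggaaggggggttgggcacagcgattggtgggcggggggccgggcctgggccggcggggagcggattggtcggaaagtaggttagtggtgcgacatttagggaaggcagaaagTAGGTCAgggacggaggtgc
Per3: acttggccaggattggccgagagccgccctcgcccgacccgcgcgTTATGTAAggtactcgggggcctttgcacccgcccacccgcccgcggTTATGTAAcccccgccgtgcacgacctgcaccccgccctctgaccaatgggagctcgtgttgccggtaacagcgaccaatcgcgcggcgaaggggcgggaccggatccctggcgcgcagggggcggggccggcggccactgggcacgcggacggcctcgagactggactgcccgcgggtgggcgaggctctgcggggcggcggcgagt
Tef: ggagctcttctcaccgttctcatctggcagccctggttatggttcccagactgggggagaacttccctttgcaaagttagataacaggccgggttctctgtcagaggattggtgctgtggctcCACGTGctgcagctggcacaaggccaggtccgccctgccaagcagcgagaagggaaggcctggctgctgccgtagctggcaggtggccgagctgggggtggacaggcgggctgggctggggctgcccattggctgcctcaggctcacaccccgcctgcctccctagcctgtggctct
Searched on both strands, TAGGTCA occurs in 2.61%, TTATGTAA in 0.938% and CACGTG in 7.15% of the 32851 promoters of that table, and no match overlapped another. The 9 promoters of 7 matched clock genes (Arntl, Dbp, Per3, Hlf, Tef, Cry2 and Nr1d1) were searched, and those of Dbp, Hlf, Cry2 and Nr1d1 held none of these letters in this window. A match is a description of sequence, and no binding was measured.

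The same ages were compared in wild-type females and in FAD4T males, which share no library with the 6. Both comparisons come from the same fit, so they share each gene's estimate of the spread. Their tests are therefore not independent of the main one. In wild-type females 47 of 18493 genes passed (0.254%), 0.205% of all genes as higher and 0.0487% as lower. In FAD4T males 291 passed (1.57%), 0.865% as higher and 0.708% as lower. Of the 78 rises, 78 had a positive log2 fold change in FAD4T males and 42 passed there in that direction, and 71 were positive in wild-type females with 19 passing. Of the 50 falls, 49 were negative in FAD4T males with 11 passing, and 41 were negative in wild-type females, where 0 passed. Kif5c passed in each, at 1.21 (adjusted p = 0.00427) in FAD4T males and 1.34 (adjusted p = 0.00311) in wild-type females. The test of the difference itself called 1 gene between wild-type males and females (0.00541%), Zfp503. By edgeR's quasi-likelihood test it called 0 between wild-type and FAD4T males, where 922 genes (4.99%) had an unadjusted p under 0.05 and DESeq2 called 16. Zfp503 was at 64.4, 65.7 and 66.6 CPM in 8-month females, against 63.2, 55.1 and 56.1 CPM in 2-month females. The count in FAD4T males rested on single libraries: it was 12 without 2-month FAD4T male 3 and 3918 without 2-month FAD4T male 1. The thymocyte genes summed to 120.4, 8.75 and 7.37 CPM in 8-month FAD4T males 1, 2 and 3, against 9.502, 544.3 and 125.5 CPM in 2-month FAD4T males 1, 2 and 3, and their part in these counts was not tested. In wild-type females it was 10 without 8-month female 2 and 211 without 2-month female 1.

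In the separate ageing set, 5840 of 16283 genes passed between 18 and 2 months (35.9%), 17.1% as higher and 18.8% as lower, a background against which the counts below are read. Of the 54 rises tested in it 25 had a positive log2 fold change, with 16 passing and 14 passing as lower. Of the 49 falls tested 31 were negative, with 12 passing and 5 passing as higher. Genes that rose at both ages included Kif5c (log2 fold change 1.69 at 18 months), Cyp27b1 (3.31), Csmd2 (4.51), Ism2 (2.29) and Arntl (3.44). Col9a3 (-1.57), H2-M9 (-1.89) and Tie1 (-0.73) fell at both. Jag1 (0.69) and mt-Atp6 (-1.64) passed at 18 months in the opposite direction. The chaperone list, without a call at 8 months, had 15 of 20 genes called higher at 18 months. The difference between the age effects, tested for 18799 genes, passed for 3651 (19.4%), among them 67 of the 128. The 18-month set differs in its 2-month males as well, so age and set cannot be told apart in this test.

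**Figure D5:**
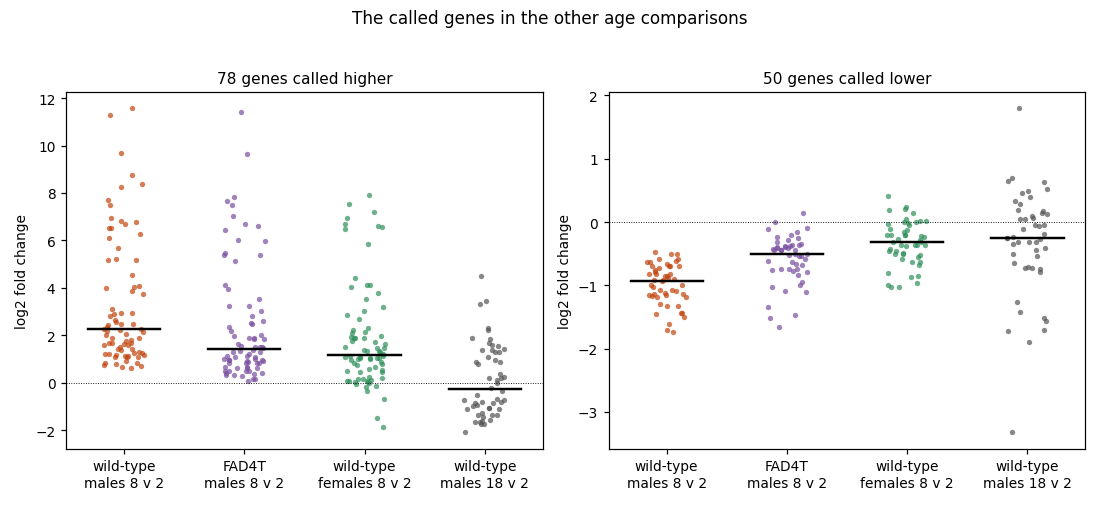
Log2 fold change of the 78 genes called higher (left) and the 50 called lower (right) in wild-type males at 8 over 2 months, with the same genes in FAD4T males and wild-type females at 8 over 2 months and in wild-type males at 18 over 2 months, 1 point per gene and a bar at each median. The values in the leftmost column chose the genes and are shown for scale, and the 18-month columns straddle 0 where the FAD4T male columns lie nearly all on 1 side. Values of genes with 0 counts in a group depend on the prior count of the fit.

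Over the other 24 libraries, 12 of 8 or 18 months and 12 of 2 months, 4 called genes separated the ages completely. Kif5c was at 29.5 to 54.9 CPM in the 12 older thyroids, against 10.4 to 17.1 CPM in the 12 of 2 months. B3galt1 was at 8.96 to 16.7 CPM in the older thyroids, against 2.35 to 7.07 CPM. H2-M9 was at 1.69 to 5.61 CPM in older thyroids, against 6.51 to 13.8 CPM at 2 months. Shf had 4.28 to 9.04 CPM in older thyroids, against 9.07 to 19.9 CPM, so its groups nearly touched. Among all tested genes 0.0973% separated upward and 0.184% downward over these 24 libraries. Both sexes and both genotypes were among the older and the younger thyroids.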

How the data were processed

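RNA was extracted with Trizol, selected with oligo(dT), made into dUTP stranded libraries and sequenced in pairs on an Illumina NovaSeq, per the labels' protocols. The deposited values are raw gene counts of read pairs made by featureCounts 1.6.0 over exons of Ensembl release 88 (GRCm38), with no strand option, per the file headers. These headers name alignments made with STAR, whereas the submitters' processing notes list cutadapt 1.9, HISAT2 2.0.4, StringTie 1.3.4d and GRCm39. Counting without strand mixes antisense neighbours, and near-identical copies cannot be separated.

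Counts were fitted with edgeR 4.0.16 (R 4.3.3) by the quasi-likelihood test, with 1 mean for each of 8 groups over 24 libraries, TMM scaling and filterByExpr at a minimum count of 10, which kept 18493 genes. The spread therefore rests on 24 libraries, and the 3 thyroids at each age set the precision of each fold change. The 18-month set of 6 libraries was fitted alone, and the comparisons between sets used all 30. Adjusted p-values are Benjamini-Hochberg over all genes tested, with a threshold of 0.05. CPM values given for other groups are scaled over all 30 libraries. In simulated counts tested over 18047 genes, known changes were put into genes that averaged at least 5 CPM. The fit called 1.49% of 1.5-fold, 40.3% of 2-fold and 97% of 4-fold changes there, and 2 unchanged genes. Each gene had the spread fitted for its level and no excess of its own. These shares therefore do not cover genes of lower level or larger spread. No pair of replicates was identical or within counting noise. Counting intervals and the floor of 3 counts cover counting error only.

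Genes were named from the 12 rises and 12 falls of largest fold change and the 8 rises and 8 falls of smallest p. These were taken among called genes with a group mean of at least 5 CPM and groups that did not overlap. Pseudogenes and unnamed gene models were left out of them. Also named were the 4 members of smallest p in each list, genes of hormone synthesis and up to 4 per direction in each interaction. Not every list member so chosen is named. Some genes so chosen are not reported here. Other genes were chosen by role after their values had been seen. The groups, members and lists were chosen with earlier results of these data known. Alternatives were DESeq2 1.42.0, other scaling, no filter, the replicate block, other sets of libraries or 2-month males and each library left out. The fit of 12 wild-type libraries, that of 19 libraries and the alternatives for other comparisons were chosen after seeing the data.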

Additional observations from a re-analysis of the deposited data

Results flagged for a closer look

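The age effect differed between wild-type males and females for 1 gene, Zfp503, by the interaction term of edgeR's quasi-likelihood test. Its log2 fold change at 8 over 2 months was -0.70 in males and 0.20 in females, a difference of -0.89 (SE 0.14, adjusted p = 0.0430), with all 3 males of 8 months below all 3 of 2 months and 2-month females at 63.2, 55.1 and 56.1 CPM. The same gene differed by -0.68 between the 8-month and the 18-month comparison (adjusted p = 0.00676). These differences, and those below, are between log2 fold changes.

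The age effect at 8 months differed from that at 18 months for 3651 genes. Of these, the 4 genes of smallest p in each direction are given here, among genes with a group mean of at least 5 CPM. Pseudogenes and unnamed gene models were left out. Pnpla2, the lipase that opens fat stores, was at 246, 251 and 219 CPM at 8 months, against 164, 201 and 203 CPM in the 2-month males numbered 1 to 3, and 101, 130.3 and 145 CPM at 18 months, against 502, 593 and 484 CPM in those numbered 4 to 6 (log2 difference 2.40, adjusted p = 1.48e-05). Cyp2e1, a cytochrome of liver and fat, was at 101, 123 and 127 CPM at 8 months, against 57.2, 64.5 and 54.1 CPM in the 2-month males numbered 1 to 3, and 10.4, 15.1 and 9.08 CPM at 18 months, against 341, 275 and 185 CPM in those numbered 4 to 6 (difference 5.53, adjusted p = 5.27e-05). The respiratory chain genes Ndufs4 and Uqcr10 had differences of 1.50 for Ndufs4 and 2.12 for Uqcr10. In the other direction Zkscan3, a zinc finger factor, was at 73.9, 83.4 and 82.2 CPM at 8 months, against 92.4, 105 and 79.7 CPM in the 2-month males numbered 1 to 3, and 204, 193 and 160.3 CPM at 18 months, against 53.8, 33.1 and 41.9 CPM in those numbered 4 to 6 (difference -2.32, adjusted p = 1.93e-05). Zbtb11 had a difference of -1.72, Eml6 of -3.02 and Edem3, of the endoplasmic reticulum degradation pathway, of -1.54. For these 8 genes the 2-month males of the 2 sets lay further apart than the 8-month males lay from their own 2-month males, and set and age cannot be told apart.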

How the results depend on the processing

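All 128 calls kept their direction under every alternative that used no other 2-month males, or 127 of 127 and 125 of 125 where fewer were tested. With all 6 males of 2 months as baseline 126 of 128 did, and with those numbered 4 to 6 106 of 128. With DESeq2's Wald test 483 genes passed, 307 higher and 176 lower. Without a filter on low counts 78 passed, 26 of them lower. With the 6 libraries alone 455 passed, 347 higher and 108 lower. With the 2-month males numbered 4 to 6 as baseline 3494 passed, 1855 higher and 1639 lower, and with all 6 males of 2 months 365, with 258 higher and 107 lower. With the 12 wild-type libraries alone 53 passed, 40 higher and 13 lower, a fit chosen after seeing the data. Another scaling moved the median of all genes by less than 0.1.

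The replicate numbers showed no clear pairing. Correlations of the deviations from the group means were 0.0282, -0.13 and 0.182 for like numbers, and ran from -0.316 to 0.268 for unlike ones. With 3 samples at each age this check cannot decide whether the samples pair. With the number as a replicate block 94 genes passed, 31 of them lower, and in FAD4T males 166. With the 6 libraries alone and the block 566 passed, 410 higher and 156 lower.

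Leaving out 1 library gave 30 to 55 calls, 18 to 41 higher and 8 to 18 lower. In the other comparisons it gave 10 to 211 in wild-type females, 12 to 3918 in FAD4T males, 3651 to 5470 between 18 and 2 months, 2386 to 4335 between the 2-month groups, 2332 to 3889 between the 8-month and 18-month effects, 0 to 4 between males and females and 0 each time between wild-type and FAD4T males. Under DESeq2 the counts were 267 in wild-type females, 1716 in FAD4T males, 123 between the sexes and 16 between the genotypes, and without a filter 165 in FAD4T males. The difference between the sexes was 0 genes without a filter, with the replicate block and with the 12 wild-type libraries.

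With the 2-month males numbered 4 to 6 as baseline the log2 fold changes that turned were -1.19 for Atp5k, -1.73 for Cox8b, 0.0938 for Dact1, 1.04 for Edem3, 1.08 for Eml6, -0.0222 for Ephx2 and -0.88 for Fabp3. Others were -0.47 for Fam213a, -0.0198 for Gm28437, -0.11 for Gm29216, 0.12 for Jag1, -0.47 for Ndufs4, -1.14 for Pnpla2 and -0.14 for Rpl10a-ps1. The last were 0.0588 for Sertad4, -0.80 for Uqcr10, 0.78 for Zbtb11, 0.86 for Zc3h11a, 0.89 for Zkscan3, -0.26 for mt-Atp8, -0.60 for mt-Co2 and -0.20 for mt-Co3. With all 6 males of 2 months those that turned were -0.46 for Atp5k and -0.00254 for Fabp3. The cause was not tested.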

Other observations

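Most called genes not described above were low in level or copies of other genes. Processed pseudogenes of ribosomal proteins (Rpl10a-ps1, Rpl6l and Rpl18-ps1) rose, as did the ferritin copy Ftl1-ps1 at 4.54, 4.91 and 4.46 CPM at 8 months, against 1.42, 1.32 and 1.67 CPM at 2 months (log2 fold change 1.65, SE 0.28, adjusted p = 0.00558). Pseudogenes of the mitochondrial family also included Gm10925 at 60.9, 45.9 and 56.1 CPM at 8 months, against 10.6, 9.69 and 8.87 CPM at 2 months. Another was Gm28437, at 55.2, 44.4 and 52.4 CPM at 8 months, against 13.3, 8.70 and 10.3 CPM at 2 months. Against the 2-month males numbered 4 to 6 none of these copies passed, at log2 fold changes of -0.14 (adjusted p = 0.701) for Rpl10a-ps1, 0.51 (adjusted p = 0.366) for Rpl6l, 0.40 (adjusted p = 0.629) for Rpl18-ps1, 0.51 (adjusted p = 0.158) for Ftl1-ps1, 0.18 (adjusted p = 0.749) for Gm10925 and -0.02 (adjusted p = 0.975) for Gm28437. Reads of near-identical copies are split or dropped in counting, so the level of any single copy is uncertain.

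Several further rises belong to genes known from other organs. Acsm2, an acyl-CoA synthetase of kidney, was at 6.85, 4.80 and 2.23 CPM at 8 months, against 0, 0.198 and 0.0596 CPM at 2 months. Mep1a, a meprin protease of kidney and gut, had 99 counts at 8 months and 1 at 2 months, a ratio of 93.9 (95% counting interval 16.5 to 3745). The major urinary proteins Mup7 and Mup11, which are near-identical and made by liver, had 0 counts at 2 months and were at least 25.9-fold and 11.1-fold higher. Bpifb3 and Scgb1c1, of nasal and airway glands, were at 3.58, 1.65 and 4.40 CPM for Bpifb3 and 5.33, 1.71 and 4.22 CPM for Scgb1c1 at 8 months, and at 2 months Bpifb3 had 0 counts and Scgb1c1 2. Trim67, a ubiquitin ligase of neurons, was at 6.97, 5.39 and 4.28 CPM at 8 months, against 1.02, 1.38 and 1.67 CPM at 2 months (log2 fold change 2.03, SE 0.44, adjusted p = 0.0372). Among the falls, Srd5a1, the steroid reductase, was at 14.2, 10.2 and 14.2 CPM at 8 months, against 26.7, 22.8 and 23.5 CPM at 2 months (log2 fold change -0.92, SE 0.20, adjusted p = 0.0414). Egflam, a matrix protein also called pikachurin, was at 4.67, 3.20 and 4.51 CPM at 8 months, against 7.43, 8.90 and 9.83 CPM at 2 months (log2 fold change -1.08, SE 0.22, adjusted p = 0.0236). Against the 2-month males numbered 4 to 6 the genes of this paragraph passed again apart from 2, at log2 fold changes of 2.25 (adjusted p = 0.105) for Mup7 and 0.84 (adjusted p = 0.159) for Trim67.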
